A study of Homo sapiens with 4 samples.

Results

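The loss of the whole intrinsically disordered region (IDR) of PAF49 was examined through the 2′-O-methylation of ribosomal RNA, by setting the library PAF49deltaIDR-GFP against the full-length libraries PAF49-GFP and PAF49. These are 3 of the 4 libraries of the series, and all 108 scored rRNA positions were used: 39 of 18S rRNA, 2 of 5.8S rRNA and 67 of 28S rRNA. The positions were not chosen by their values. All libraries came from the human line HAP1, which is near-haploid and derives from a leukaemia. PAF49deltaIDR-GFP is labelled as a deletion of the IDR with the fluorescent tag GFP, PAF49-GFP names the tag and no deletion, and PAF49 names neither. The remaining library, PAF49delta1/2IDR-GFP, is given only beside results of the full deletion. The labels do not say which residues are missing, what drives the constructs, whether the cells kept their own PAF49, or how many clones were used. Each group had 1 library of unknown depth, so there was no replicate spread, no test was possible, and the full-length libraries served as the only yardstick.

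PAF49, the product of POLR1G, is a subunit of RNA polymerase I, which makes the precursor of 18S, 5.8S and 28S rRNA in the nucleolus. Most methyl groups on the ribose 2′ oxygen of this RNA are placed in the nucleolus by fibrillarin, which is led to each nucleotide by a box C/D small nucleolar RNA (snoRNA) that pairs with the rRNA. The series title joins disordered regions, nucleoli and RNA modification, and the comparison asks how the methylation profile looks without this region. RiboMethSeq reads the methyl group as protection from alkaline hydrolysis. Its MethScore runs from 0 to 1, with stronger protection read from higher values. Sites are named by rRNA, methylated base and position, as in 18S-Gm867.

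Most of the profile was close to that of the full-length libraries when the disordered region was lost. The mean MethScore over the 108 sites was 0.856 in PAF49deltaIDR-GFP, 0.849 in PAF49-GFP and 0.842 in PAF49. At 82 sites (75.9%) PAF49deltaIDR-GFP lay inside the range spanned by the full-length libraries or under 0.02 from it, and at 98 sites (90.7%) it lay inside or under 0.05 from it. The widest distance outside the range was 0.144, at 18S-Gm867. Among the 57 sites with a mean full-length score of 0.9 or above, the lowest score of PAF49deltaIDR-GFP was 0.872, at 28S-Am3724.

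With no minimum distance, PAF49deltaIDR-GFP was outside the full-length range at 83 sites (76.9%), above it at 50 (46.3%) and below it at 33 (30.6%). Of the 3 libraries it was the middle one at 25 sites, against 54 sites for PAF49-GFP and 29 for PAF49. The split into above and below depended on scaling. It was 41 above and 46 below with all libraries shifted to the same median, and 34 above and 40 below after quantile normalisation. A direction of the whole profile is therefore not given.

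The median sizes of the differences were close to that between the full-length libraries themselves. Differences of 0.1 or more were found at more sites for the deletion, but the numbers were small. The median absolute difference was 0.0124 for PAF49deltaIDR-GFP minus PAF49-GFP and 0.0147 for PAF49deltaIDR-GFP minus PAF49, beside 0.0107 for PAF49-GFP minus PAF49. Differences under 0.02 were found at 71 sites (65.7%) against PAF49-GFP and at 64 sites (59.3%) against PAF49, beside 74 sites (68.5%) between the full-length libraries. Differences under 0.05 were found at 93 sites (86.1%) against PAF49-GFP and at 86 (79.6%) against PAF49, beside 95 (88.0%) between the full-length libraries. Those of 0.1 or more, either way, were found at 5, 5 and 2 sites in the same order. Against the mean of the full-length libraries, 3 sites were higher by as much and 0 lower. The SD over sites was 0.0400 against PAF49-GFP and 0.0517 against PAF49, beside 0.0352 between the full-length libraries.

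**Figure D1:**
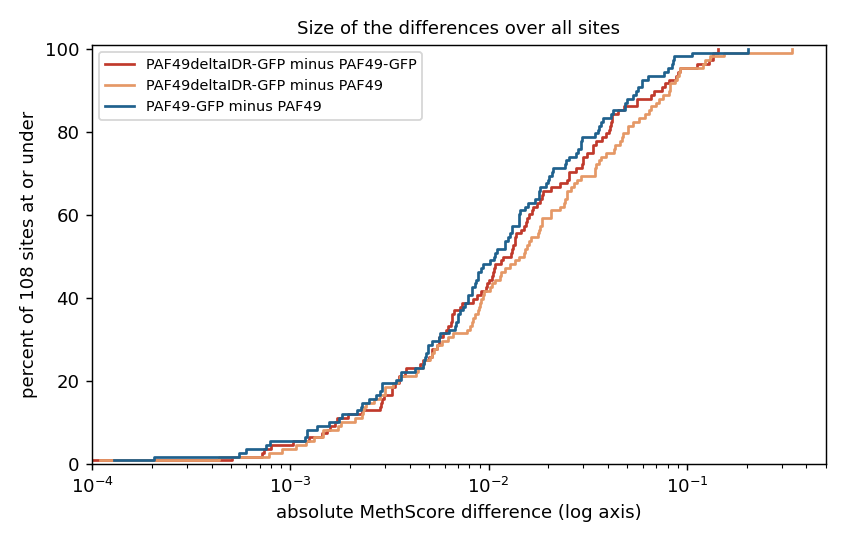
Cumulative percent of the 108 sites (y axis) at or under a given absolute MethScore difference (x axis, log scale), for PAF49deltaIDR-GFP minus each full-length library and for PAF49-GFP minus PAF49. The medians of the 3 curves are 0.0124, 0.0147 and 0.0107.

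PAF49deltaIDR-GFP lay outside the full-length range by 0.05 or more at 10 sites (9.26%), of which 8 were above (7.41%) and 2 below (1.85%). The sites above were 18S-Gm867, 28S-Gm4618, 28S-Cm2824, 28S-Gm4042, 28S-Um2044, 28S-Um4620, 28S-Cm3808 and 18S-Um428. Those below were 28S-Am3867 and 28S-Cm4536. By the same measure, PAF49 was as far outside the range of PAF49-GFP and PAF49deltaIDR-GFP at several sites. These were 28S-Gm4618, 28S-Um2415, 28S-Cm1340, 28S-Gm4637, 28S-Am4571, 28S-Gm3944, 28S-Am2787 and 18S-Gm601, some of them picked out after their values were known. For PAF49-GFP they were 18S-Um354, 28S-Am3785, 28S-Gm1760 and 28S-Gm1316. A gap of this size was thus not particular to the deletion. The last site past this distance was 18S-Um428, with a gap of 0.0557, and the first short of it was 28S-Cm1881, with a gap of 0.0482. A shift of the libraries to the same median left the same 10 sites, but the shifts were too small to carry any site across 0.05. Quantile normalisation gave 6 above and 8 below, and 8 of the 10 sites stayed past 0.05, all but 18S-Um428 (0.0155) and 28S-Cm3808 (0.0466). For 28S-Um2044, 1 of the sites that stayed, the quantile gap of 0.0881 comes from an exchange of ranks with 18S-Um354, described below. Its staying is therefore no check of that site.

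18S-Gm867 is a guanosine whose methylation is guided by SNORD98. Its score was 0.454 in PAF49deltaIDR-GFP, against 0.310 in PAF49-GFP and 0.299 in PAF49. The full-length libraries were nearly the same at this poorly protected site, 0.0110 apart, and PAF49deltaIDR-GFP was 0.144 above the higher of them. PAF49delta1/2IDR-GFP scored 0.332, closer to the full-length libraries than to the full deletion.

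28S-Gm4618, guided by SNORD91A and SNORD91B, scored 0.710 in PAF49deltaIDR-GFP, against 0.575 in PAF49-GFP and 0.372 in PAF49. The gap above the range was 0.135, but PAF49-GFP and PAF49 differed more here than anywhere else, by 0.203. It was the only one of the 8 sites above whose gap was smaller than the difference between the full-length libraries. PAF49delta1/2IDR-GFP, at 0.516, lay between the full-length libraries.

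The neighbouring 28S-Um4620 scored 0.844 in PAF49deltaIDR-GFP, against 0.769 in PAF49-GFP and 0.720 in PAF49. It thus stood above the range by 0.0750, on the same side as 28S-Gm4618 at a distance of 2 nt. The next site, 28S-Gm4623, had a score of 0.964 in PAF49deltaIDR-GFP, against 0.972 in PAF49-GFP and 0.964 in PAF49. The difference at this well protected guanosine was thus under 0.01 against either full-length library. In RiboMethSeq the scores of adjacent positions may share reads, and whether the paired sites are independent was not tested.

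28S-Cm2824, a cytidine guided by SNORD95, had full-length libraries that lay close together. It scored 0.728 in PAF49deltaIDR-GFP, against 0.599 in PAF49-GFP and 0.597 in PAF49. The full-length libraries were 0.00181 apart, and the gap was 0.129. After quantile normalisation they were 0.0190 apart, and the gap was 0.0617. PAF49delta1/2IDR-GFP scored 0.655, between the full-length libraries and the full deletion. The same snoRNA guides 28S-Am2815, which lies 9 nt away. That site scored 0.888 in PAF49deltaIDR-GFP, against 0.846 in PAF49-GFP and 0.838 in PAF49, a gap of 0.0421 on the same side. Whether the scores of these close sites are independent was not tested.

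28S-Gm4042, guided by SNORD102, scored 0.792 in PAF49deltaIDR-GFP, against 0.704 in PAF49-GFP and 0.711 in PAF49, with a gap of 0.0810. 28S-Cm3808 scored 0.909 in PAF49deltaIDR-GFP, against 0.843 in PAF49-GFP and 0.845 in PAF49, with a gap of 0.0645. At both sites the full-length libraries were less than 0.01 apart. At 28S-Cm3808, PAF49deltaIDR-GFP was left with 0.0910 below a full score of 1, against a mean of 0.156 in the full-length libraries. The site 10 nt away, 28S-Um3818, scored 0.940 in PAF49deltaIDR-GFP, inside the range of 0.944 in PAF49-GFP and 0.939 in PAF49.

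18S-Um428, guided by SNORD68, scored 0.761 in PAF49deltaIDR-GFP, against 0.706 in PAF49-GFP and 0.669 in PAF49, and PAF49delta1/2IDR-GFP at 0.687 was inside the range. SNORD68 also guides 28S-Am2401 (picked out after its values were known), where PAF49deltaIDR-GFP scored 0.800, against 0.789 in PAF49-GFP and 0.753 in PAF49. The gap there was 0.0116, smaller than the 0.0356 between the full-length libraries. 18S-Gm436, which lies 8 nt from 18S-Um428 and is guided by SNORD100, scored 0.785 in PAF49deltaIDR-GFP, against 0.830 in PAF49-GFP and 0.801 in PAF49. It was on the other side of the range, by 0.0155.

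28S-Um2044 had the lowest starting level of all sites. It scored 0.0902 in PAF49deltaIDR-GFP, was listed at 0 in PAF49-GFP and scored 0.0142 in PAF49. What a listed score of 0 stands for is unknown here, and no fold was formed. The gap to PAF49, the higher of the full-length libraries, was 0.0759.

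Both sites below the range lie in 28S rRNA. 28S-Am3867 scored 0.335 in PAF49deltaIDR-GFP, against 0.417 in PAF49-GFP and 0.408 in PAF49, 0.0725 below the lower of them. PAF49delta1/2IDR-GFP, at 0.452, was on the other side of the full-length range. 28S-Cm3869, 2 nt away, scored 0.756 in PAF49deltaIDR-GFP, between 0.716 in PAF49-GFP and 0.769 in PAF49. After quantile normalisation it was below the range too, with a gap of -0.0155.

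28S-Cm4536, guided by SNORD35A and SNORD35B, scored 0.803 in PAF49deltaIDR-GFP, against 0.881 in PAF49-GFP and 0.861 in PAF49. The gap was -0.0574, and the full-length libraries were 0.0201 apart. PAF49delta1/2IDR-GFP, at 0.867, was inside the range.

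**Figure D2:**
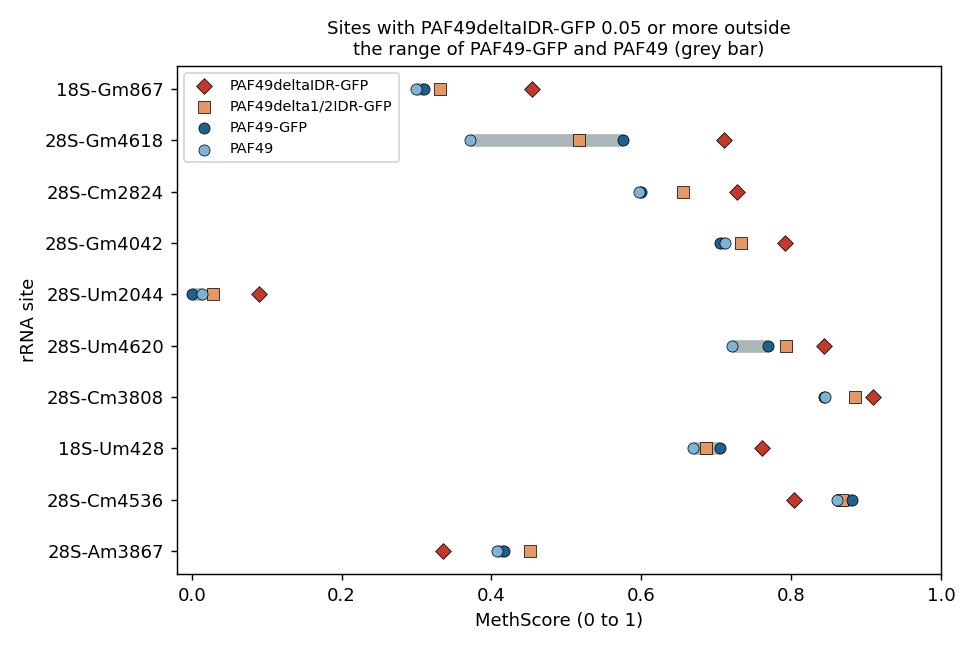
MethScore (x axis, 0 to 1) at the 10 sites (y axis) at which PAF49deltaIDR-GFP (diamonds) lay 0.05 or more outside the range of PAF49-GFP and PAF49 (circles joined by a grey bar), with PAF49delta1/2IDR-GFP as squares. Each point is 1 library. The diamonds lie right of the circles at the upper 8 sites and left of them at 28S-Cm4536 and 28S-Am3867, and the grey bar is widest at 28S-Gm4618.

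The choice of full-length library decided other sites. A difference of 0.1 or more from PAF49-GFP was reached at 5 sites (4.63%), of which 3 were higher (2.78%) and 2 lower (1.85%). With PAF49 as the control 5 sites (4.63%) were higher and 0 lower, and PAF49-GFP itself was higher than PAF49 by as much at 2 sites (1.85%). 18S-Gm867, 28S-Gm4618 and 28S-Cm2824 were past 0.1 against both.

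The sites lower than PAF49-GFP by 0.1 or more lay nearer to PAF49 as deposited. 18S-Um354, guided by SNORD90, scored 0.0883 in PAF49deltaIDR-GFP, against 0.224 in PAF49-GFP and 0.117 in PAF49. 28S-Am3785, guided by SNORD15A and SNORD15B, scored 0.737 in PAF49deltaIDR-GFP, against 0.849 in PAF49-GFP and 0.764 in PAF49. As deposited, PAF49-GFP was the farthest of the 3 libraries from the other two at both sites, and PAF49deltaIDR-GFP was less than 0.03 below PAF49. Quantile normalisation gave larger gaps below the range, of -0.0881 at 18S-Um354 and -0.0609 at 28S-Am3785. At 18S-Um354 it also set PAF49-GFP and PAF49 to the same score, since this site has the same rank in both. In PAF49deltaIDR-GFP, 18S-Um354 ranked just below 28S-Um2044 (0.0902), the reverse of their order in the full-length libraries. The scaling thus exchanged their scores, 0.0326 and 0.121, so that -0.0881 at 18S-Um354 mirrors 0.0881 at 28S-Um2044. It does not measure a larger loss.

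The converse held at 28S-Cm1340, guided by SNORD104. It scored 0.915 in PAF49deltaIDR-GFP, against 0.874 in PAF49-GFP and 0.794 in PAF49, so that the difference was 0.0405 against PAF49-GFP and 0.121 against PAF49. At 28S-Um2415 PAF49deltaIDR-GFP (0.802) was close to PAF49-GFP (0.797) and above PAF49 (0.713). At 28S-Gm1760 it scored 0.819, inside the range of 0.751 in PAF49-GFP and 0.837 in PAF49. Each of these sites thus varied more between the full-length libraries than PAF49deltaIDR-GFP departed from their range.

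A gap of 0.02 or more was found at 26 sites (24.1%), 17 above (15.7%) and 9 below (8.33%). After the shift to the same median these were 16 above and 11 below, and after quantile normalisation 12 above and 17 below. Among the sites above with gaps under 0.05 were 28S-Cm1881 (0.0482), 28S-Am1524 (0.0413), 28S-Gm1316 (0.0367), 18S-Um627 (0.0349), 28S-Gm3744 (0.0254) and 28S-Cm2365 (0.0241). Those below were 28S-Am3724 (-0.0389), 28S-Gm4499 (-0.0337), 18S-Um799 (-0.0296), 18S-Um354 (-0.0292), 28S-Am3785 (-0.0268), 28S-Am4590 (-0.0239) and 28S-Gm3944 (-0.0230). Quantile normalisation placed 28S-Cm1881 and 28S-Gm1316 inside the range and left 28S-Gm3744 at 0.00871. At 28S-Gm1316 the gap as deposited was smaller than the 0.0554 between the full-length libraries, as it was at 28S-Gm3744, 28S-Cm1340, 18S-Um354, 28S-Am3785 and 28S-Gm3944.

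28S-Am3724 and 28S-Gm4499 were the only sites starting at 0.9 or above with a gap of 0.02 or more. 28S-Am3724 scored 0.872 in PAF49deltaIDR-GFP, against 0.911 in both PAF49-GFP and PAF49. 28S-Gm4499 scored 0.909 in PAF49deltaIDR-GFP, against 0.943 in PAF49-GFP and 0.944 in PAF49. The yeast counterpart of 28S-Gm4499 lies in the A loop of the large subunit, which holds the end of the aminoacyl-tRNA. PAF49delta1/2IDR-GFP was near the full-length libraries at both sites, at 0.911 and 0.940.

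Beside 28S-Gm4499 lies 28S-Um4498, picked out after its values were known. It scored 0.835 in PAF49deltaIDR-GFP, against 0.869 in PAF49-GFP and 0.844 in PAF49. It was below the range too, with a gap of -0.00918, smaller in size than the 0.0246 between the full-length libraries.

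**Figure D3:**
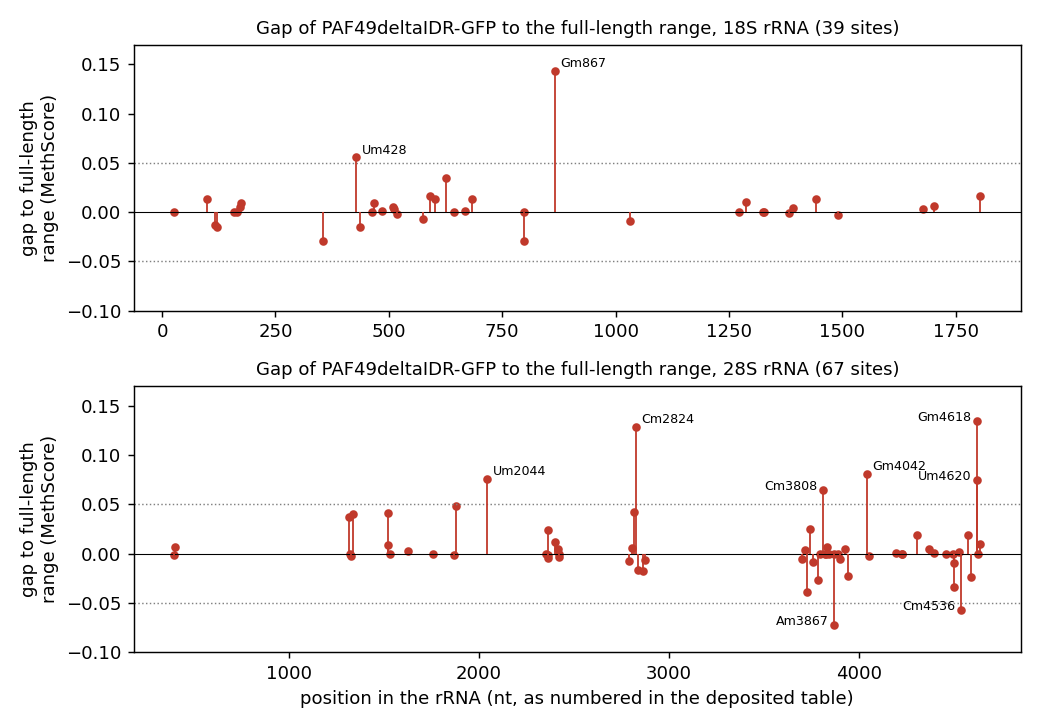
Distance of PAF49deltaIDR-GFP outside the range of PAF49-GFP and PAF49 (y axis, MethScore; 0 is inside the range) at each site along 18S rRNA (upper panel) and 28S rRNA (lower panel), with dotted lines at 0.05 and -0.05. In 18S rRNA 2 sites pass the upper line and none the lower, and in 28S rRNA 6 pass the upper and 2 the lower.

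By rRNA, 2 of the 39 sites of 18S (5.13%) and 8 of the 67 sites of 28S (11.9%) lay outside by 0.05 or more, beside 9.26% of all sites. With a gap of 0.02 or more these were 5 sites of 18S (12.8%) and 20 sites of 28S (29.9%), beside 24.1% of all sites. The median difference from PAF49-GFP was 0.00385 in 18S and 0.00171 in 28S, beside 0.00310 over all sites. In the 3′ part of 18S, above position 1200, all 11 sites were within 0.02 of the range as deposited, beside 75.9% of all sites. After quantile normalisation 10 were, all but 18S-Cm1272. Most of these sites start at 0.9 or above, a class with 96.5% of sites within 0.02. In 18S 25 of the 39 sites start there, and in 28S 32 of the 67. Among sites starting from 0.5 to below 0.9, 8 of 11 in 18S and 17 of 31 in 28S were within 0.02.

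Along 28S rRNA, gaps of 0.02 or more were found at 3 of 10 sites up to position 1700, at 5 of 19 sites above 1700 and up to 3400, and at 12 of 38 sites above 3400. As deposited, those up to 3400 comprised 8 above and 0 below, but 7 and 2 with libraries at a common median and 6 and 5 after quantile normalisation. Above 3400, 5 lay above and 7 below, and after quantile normalisation 4 and 7. No difference between these stretches was tested.

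In 5.8S rRNA, which pairs with 28S rRNA in the large subunit, the guanosine lay outside the range and the uridine inside. 5.8S-Gm75 scored 0.874 in PAF49deltaIDR-GFP, against 0.846 in PAF49-GFP and 0.848 in PAF49, 0.0259 above the range. 5.8S-Um14 scored 0.820 in PAF49deltaIDR-GFP, inside the range of 0.833 in PAF49-GFP and 0.818 in PAF49. After quantile normalisation 5.8S-Gm75 was inside the range as well.

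Distances outside the range differed between sites of high and low starting level. Among the 57 sites with a mean full-length score of 0.9 or above, 55 (96.5%) were within 0.02 of the range and none was outside by 0.05. Among the 44 sites starting from 0.5 to below 0.9, 26 (59.1%) were within 0.02, 13 were above by at least that much and 5 below. Of the 7 sites starting under 0.5, 1 was within 0.02, 4 were above and 2 below. The one within was 18S-Cm1272, with 0.442 in PAF49deltaIDR-GFP, 0.444 in PAF49-GFP and 0.437 in PAF49, but it had a gap of -0.0297 after quantile normalisation. That scaling gave 9 sites above and 10 below in the middle class, and 3 above and 3 below in the lowest. As deposited, PAF49delta1/2IDR-GFP was also outside by 0.02 or more at most sites of the lowest class. These were 28S-Gm1316 (0.0741), 18S-Um354 (-0.0658), 28S-Am3867 (0.0353), 18S-Cm1272 (-0.0280) and 18S-Gm867 (0.0213). At 0.9 or above it was so only at 28S-Um3818 (-0.0320) and 18S-Am512 (0.0255), the latter picked out after its values were known. In these classes the pattern was thus not particular to the full deletion.

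The full-length libraries themselves differed least at sites of high starting level. Their median absolute difference was 0.00517 at sites starting at 0.9 or above, 0.0250 from 0.5 to below 0.9 and 0.0142 under 0.5. The median absolute difference of PAF49deltaIDR-GFP from PAF49-GFP was 0.00607, 0.0298 and 0.0922 in the same classes, and from PAF49 it was 0.00583, 0.0306 and 0.0725. In the upper classes the deletion thus departed, by this median, about as far as the full-length libraries did from each other. The lowest class holds only 7 sites, and its starting level comes from the same libraries as the differences.

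**Figure D4:**
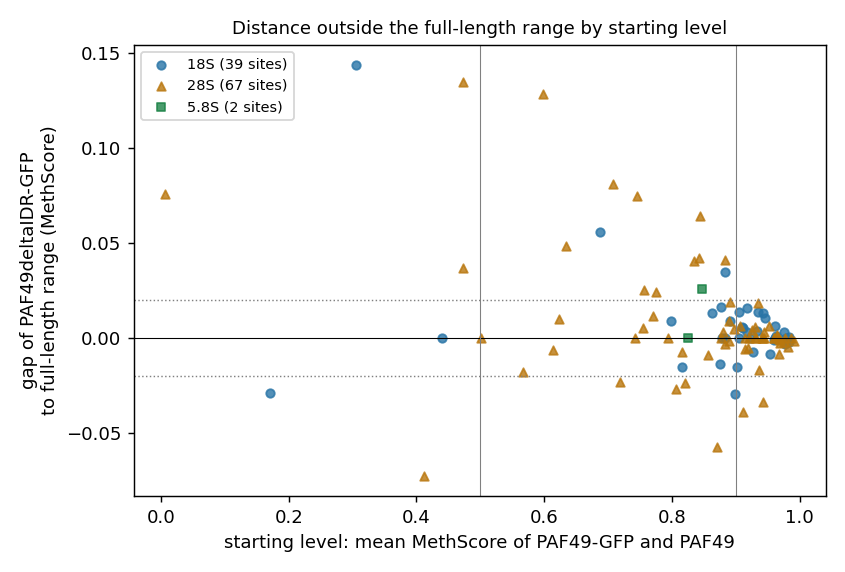
Distance of PAF49deltaIDR-GFP outside the full-length range (y axis, MethScore; 0 is inside) against the mean MethScore of PAF49-GFP and PAF49 (x axis) for the 108 sites, by rRNA. Dotted lines mark 0.02 and -0.02, and vertical lines 0.5 and 0.9. Of the 57 sites right of 0.9, 55 lie between the dotted lines.

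The least variable sites of the 3 libraries were all well protected. They were 28S-Gm2364 (0.989 in PAF49deltaIDR-GFP, 0.991 in PAF49-GFP and 0.992 in PAF49), 28S-Am1534 (0.986, 0.987 and 0.984 in the same order), 28S-Gm4392 (0.966, 0.963 and 0.964), 28S-Cm4456 (0.914, 0.916 and 0.913) and 18S-Am1678 (0.979, 0.975 and 0.975). Their ranges over the 3 libraries ran from 0.00231 to 0.00350. Adenosine, cytidine, guanosine and uridine are all methylated in this way, and the share of sites outside by 0.05 or more was 1 of 34 adenosines, 3 of 23 cytidines, 3 of 30 guanosines and 3 of 21 uridines, beside 10 of all 108.

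PAF49delta1/2IDR-GFP shares the full-length controls with PAF49deltaIDR-GFP, so its values stand beside the others as a description only. It lay above the full-length range by 0.05 or more at 4 sites (3.70%) and below at 1 (0.926%). With a gap of 0.02 or more these were 15 sites above (13.9%) and 3 below (2.78%). At the 8 sites above for PAF49deltaIDR-GFP, it was above the range at 6, by 0.02 or more at 5 of these, and inside it at 28S-Gm4618 and 18S-Um428. Over all sites it was above the range at 58 (53.7%). At the 2 sites below, it was not below the range, lying above it at 28S-Am3867 and inside at 28S-Cm4536. 28S-Cm2824 was the only one of the 10 sites at which PAF49delta1/2IDR-GFP was outside by 0.05 or more, with a gap of 0.0561.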

How the data were processed

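RiboMethSeq libraries of HAP1 total RNA were analysed from the deposited table. Per the labels' protocols, RNA was hydrolysed in bicarbonate buffer, end-repaired and made into small RNA libraries. Trimmomatic 0.36 and Bowtie2 2.3.3.1 are listed, per the submitters' processing notes, without role or order. For the score's formula, rRNA reference and site filter, the sources used here give nothing. The MethScore, headed raw data per the file headers, was treated as a fraction, since all values the authors deposited lie from 0 to below 1. A second block, a fold (ratio) to PAF49-GFP deposited by the authors, was not used. The table gives no counts, so depth is unknown and no interval could be formed.

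Groups were taken from sample titles. With Python 3.11.15, pandas 2.3.3 and numpy 2.4.6, the range of PAF49 and PAF49-GFP was formed at each site, and the gap is the signed distance of PAF49deltaIDR-GFP outside it. Thresholds were 0.1 for differences and 0.02 or 0.05 for gaps. The alternatives tried were other thresholds and controls, a shift to a common median, quantile normalisation of the 4 libraries, log2 odds (scores held within 0.01 to 0.99) and leaving out sites. Sites were named where the gap was 0.02 or more (at most 10 per direction under 0.05), where the difference from PAF49-GFP was 0.1 or more, where they lay within 10 nt of a gap of 0.05, in 5.8S rRNA, and for the 5 smallest ranges, the 5 lowest starting levels and the 5 largest full-length differences. The functions were tested on simulated scores. The members and lists were chosen with earlier results of these data known. snoRNA guides are named from general knowledge.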

Additional observations from a re-analysis of the deposited data

How the results depend on the processing

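With 1 library per group no replicate could be left out, and no paired analysis was possible because each group has 1 library and the labels give no replicate numbers. The median difference from PAF49-GFP, 0.00310 as deposited, was -0.000485 once all libraries had a common median and 0 under quantile normalisation. The counts higher and lower by 0.1 or more, 3 and 2, became 10 and 5 at a difference of 0.05, and 0 and 0 at 0.2. They were 5 and 0 with PAF49 as the control, 3 and 0 with the mean of the full-length libraries, and 1 and 2 at a log2 odds difference of 1. Quantile normalisation gave 2 and 1, as did leaving out sites with 0.1 or more between PAF49-GFP and PAF49. The counts above and below the range by 0.05, 8 and 2, became 17 and 9 at a gap of 0.02, 3 and 0 at 0.1, and 1 and 0 at a log2 odds gap of 1. That 1 site was 28S-Um2044, where scores lie near the lower limit of 0.01 set for the odds. After quantile normalisation they were 6 and 8, where the added sites below were 18S-Um354, 28S-Am3724, 28S-Am3785, 28S-Gm3944, 28S-Cm2861 and 28S-Gm2876, the last pair chosen after their values were seen. Changes of threshold act by construction, and so did the exchange of ranks behind the quantile gaps at 18S-Um354 and 28S-Um2044. For the other settings the cause was not tested. The count within 0.02 of the range, 82, ran from 67 (within 0.01) to 98 (within 0.05) and was 79 after quantile normalisation. The 12 sites past a gap of 0.05 or a difference of 0.1 were picked by these same values, and all lie outside the full-length range. Their sign thus could not turn with PAF49 as the control, nor with the median shift (0.00226 for PAF49-GFP and -0.00133 for PAF49deltaIDR-GFP). The count that follows is therefore no check of robustness. With either scaling or with PAF49 as the control, 0 of 36 recomputed differences turned sign at these 12 sites. At the other 27 named sites 12 of 81 did, among them 28S-Cm3869 (0.0407 from PAF49-GFP, -0.0155 after quantile normalisation and -0.0128 from PAF49), 28S-Gm1760 (0.0680, and -0.0182 from PAF49) and 5.8S-Um14 (-0.0131, and 0.00701 after quantile normalisation). Unknown depth leaves the counting error of every score unknown.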
